A study of Homo sapiens with 4 samples.

Results

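The regions described here are the subtelomeric ones, those within 2 Mb of a chromosome end, on chromosomes 1 to 18, 20 and 21. They were chosen by position alone, without their scores or widths. At 36 ends (16 on short arms, called p, and 20 on long arms, called q) they numbered 4570 of the 78859 replication-initiation regions of WT cells, 4301 of the 159667 of RepID KO cells and 1989 of the 24222 RepID-bound regions, 10860 of 262748 regions in all. The short arms of chromosomes 13, 14, 15 and 21 and all of chromosomes 19 and 22 were outside the selection, and the outer edge of a q end was the largest coordinate found on that chromosome in the 3 lists.

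The study asked whether RepID, a WD40-repeat protein also known as PHIP or DCAF14, determines where replication starts. Nascent strands were isolated by size and by exonuclease digestion from asynchronous HCT116 colon carcinoma cells and sequenced, from cells with unaltered RepID (WT) and from cells in which RepID was disrupted with CRISPR-Cas9 and stable clones were selected with puromycin (KO). RepID binding was mapped by ChIP-Seq with a FLAG antibody in U2OS osteosarcoma cells that express RepID with a FLAG tag, so RepID binding was not measured in the cells whose origins were mapped. Each condition had 1 library, and all cells were grown in DMEM with serum.

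DNA replication starts at origins, which are licensed in G1 phase when the origin recognition complex and CDT1 load the MCM helicase, and of which only some fire in each S phase. The outermost megabases of human chromosomes are mostly gene-rich and GC-rich, and the repeats that lie closest to the telomere are shared between several chromosome ends. Subtelomeres and telomeres depend on origins close to them, since a fork that stalls near the tip cannot be met by one coming from the other side.

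Regions of enrichment, their positions and 1 score per region are what the lists give. Positions are those of hg19, the build named in the submitters' processing notes, counted from 1. The lists cannot show whether the targeted gene was lost or whether the cells are what the labels say. They give no read totals, so the depth behind each region is unknown, and without replicate libraries WT and KO cells were compared by value only, with no test. Intervals below are 95% intervals for counting error only, and since neighbouring regions are not independent, they are narrow. The handling of reads that match several chromosome ends is not given in the sources used here. All WT and KO regions lay on a grid of 200 bp.

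Initiation regions of WT cells were crowded at the chromosome ends. They numbered 63.5 per Mb (61.6 to 65.3) in the 72 Mb of end windows and 25.3 per Mb (25.1 to 25.5) in the 2630 Mb of interior, a ratio of 2.51 (2.44 to 2.59). They covered 39.1% of the bases at the ends and 9.17% in the interior. The ends held the highest-scoring WT regions as well. Of the 100 top-scoring WT regions on these chromosomes, 57 lay at the ends (46.7 to 66.9%), and of the top 500, 170 did (34.0%, 29.9 to 38.3%), whereas the ends made up 2.66% of the length and 6.43% of the WT regions. The crowding was present at most ends. The WT density was above that of the same chromosome's interior at 32 of 36 ends, and the exceptions were 1q, 3p, 9p and 18p. The interior was also cut into 1254 whole windows of 2 Mb, which left out 122 Mb of it (windows mostly without regions and the remainder at the long-arm side of each chromosome). Set against the median window of 16.5 per Mb, 33 ends were higher and 12 were above the 95th percentile of 75 per Mb.

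WT regions at the ends were also wider. Their median width was 3200 bp at the ends and 2200 bp in the interior, a ratio of 1.45, and the upper quartile was 6600 bp against 4000 bp. Zones of 10 kb or wider, which may hold several origins merged in the calling, numbered 715 at the ends (15.6%, 14.6 to 16.7%) against 6.0% in the interior (5.83 to 6.19%), where the whole WT list had 6.92%. The median WT score was 218 at the ends and 115.5 in the interior, and both the median width and the median score were above the interior values at 30 of 36 ends. In KO cells the ends had no such excess of wide regions over the interior. The median width was 3000 bp in both places, and 92 KO regions of 10 kb or wider at the ends (2.14%, 1.73 to 2.62%) compare with 2.36% in the interior and 2.32% in the whole KO list. The median KO score was 134 at the ends and 130 in the interior. Of the 100 top-scoring KO regions 10 lay at the ends (4.90 to 17.6%), and of the top 500, 19 did (3.80%, 2.30 to 5.87%), where the ends held 2.79% of the KO regions.

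**Figure D1:**
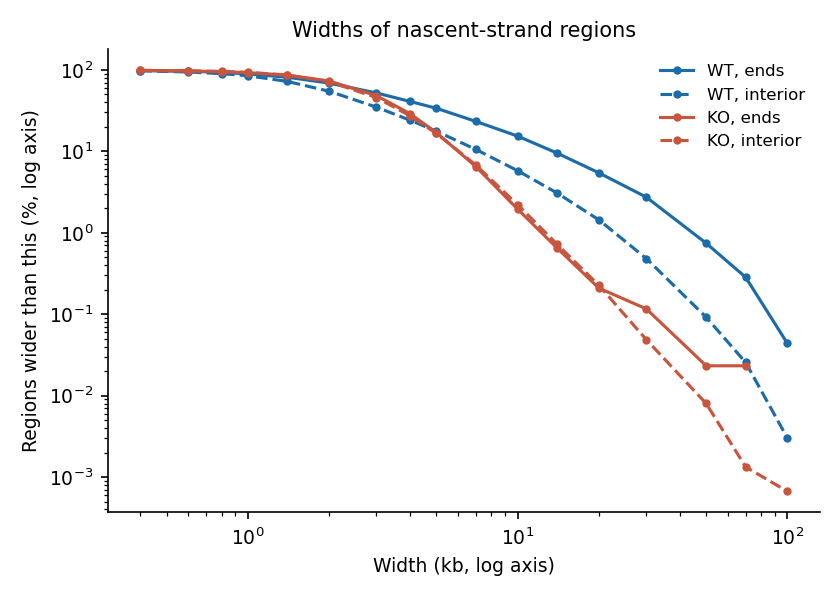
Widths of nascent-strand regions. The share of regions wider than a given width (percent, log axis) is plotted against that width (kb, log axis) for WT and KO cells at the ends (solid) and in the interior (dashed). The WT curve of the ends lies above the other 3 from 3 kb upward, with 5.45% of WT regions at the ends wider than 20 kb against 1.44% in the interior, while both KO curves lie together up to 20 kb (0.209% and 0.227%).

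RepID-bound regions were concentrated at the ends as well. They numbered 27.6 per Mb (26.4 to 28.9) at the ends and 7.44 per Mb (7.34 to 7.55) in the interior, a ratio of 3.71 (3.54 to 3.89), above the ratio of 2.51 for WT regions. That order turned when bases were counted in place of regions (3.98 for RepID, 4.26 for WT), and with only the regions of each list at or above its median score both were close (3.44 and 3.47). Their density was above that of the same chromosome's interior at 28 of 36 ends, and below it at 1q, 3p, 6p, 8p, 9p, 10p, 11q and 21q. The regions themselves were much alike in both places, with a median width of 569 bp at the ends and 560 bp in the interior and a median score of 189 against 202. Almost every RepID region at the ends, 1935 of 1989 (97.3%, 96.5 to 98.0%), lay within 2 kb of a WT initiation region, against 90.2% in the interior (89.7 to 90.6%) and 91.1% in the whole list. The shorter distance between WT regions at the ends, a median of 3400 bp against 6800 bp from one to the next, goes with this share.

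KO cells lacked the crowding at the ends. KO regions numbered 59.7 per Mb (58.0 to 61.5) at the ends and 57.0 per Mb (56.7 to 57.3) in the interior, a ratio of 1.05 (1.02 to 1.08), and covered 21.2% and 19.9% of the bases. The direction of this small excess varied with the setting: the ratio was 0.990 over the p ends and 1.09 over the q ends, 1.08 without 10q (the lowest KO count), 0.985 without 8q, 16q and 17q (the highest) and 1.01 without all 4. It was 1.13 with windows of 5 Mb, 1.10 with a KO list as long as the WT list, and 0.974 where stretches of 100 kb or more with no region in any list were taken out. The KO density was above that of the same chromosome's interior at 20 ends and below it at 16. The KO list was the longer one genome-wide, with 2.26 KO regions for each WT region in the interior, but at the ends it held 0.941 KO regions for each WT region, a quotient of 0.417 (0.40 to 0.436). Over 13 other settings the quotient ran from 0.249, by bases covered, to 0.853, against the RepID-rich interior windows described below. KO regions were fewer than WT regions at 24 of 36 ends. As the lists give no read totals, a difference in depth and a difference in initiation between WT and KO cells cannot be told apart. The quotient sets the ends against the interior within each list, but it changes with the regions that are called. With only the regions of each list at or above its median score it was 0.319. It can therefore depend on depth too, which was not tested.

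The change with distance from the end differed among the lists. For this, each region was counted once, in the step that held its centre, so that values of the outer 2 Mb differ slightly from those of the windows above, which take in regions that cross the limit. Averaged over the ends, WT density was 63.3 per Mb in the outer 2 Mb, 60.2 from 2 to 4 Mb, 49.9 from 4 to 6 Mb and 38.6 from 8 to 10 Mb. RepID density fell over a shorter distance, from 27.6 per Mb through 17.9 and 12.8 to 9.60. KO density went the other way, from 59.7 per Mb in the outer 2 Mb to 65.1, 70.7 and, at 8 to 10 Mb, 67.4. The share of WT regions overlapped by a KO region was 54.3% in the outer 2 Mb, 56.6% from 2 to 4 Mb and 66.2% from 4 to 6 Mb.

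**Figure D2:**
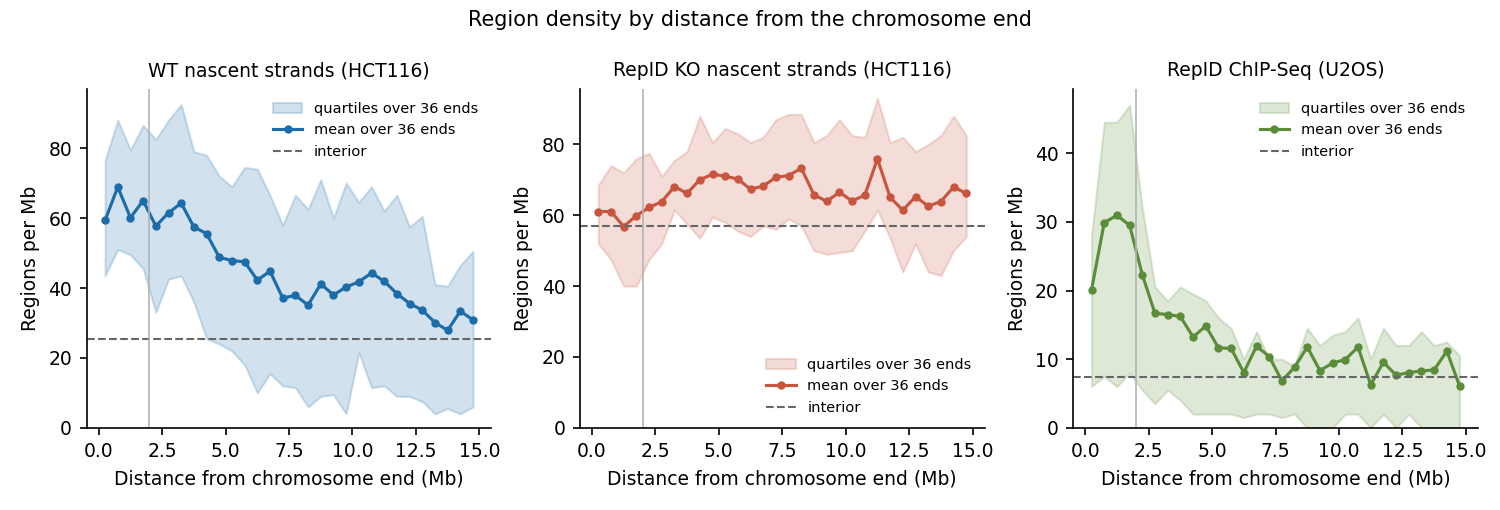
Region density by distance from the chromosome end. Lines and points are means over 36 ends in steps of 0.5 Mb (regions per Mb), bands are the quartiles over ends, dashed lines are the densities of the interior and the vertical line is the 2-Mb limit. WT density starts at 59.3 per Mb and reaches 40.3 at 9.5 to 10 Mb, RepID density is highest between 0.5 and 2 Mb, and KO density stays close to or above its interior value of 57.0 per Mb at all distances.

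Many interior stretches were as rich in RepID as the ends. These shared the high WT density and most of the low number of KO regions per WT region. They did not share the KO density of the ends or their lower overlap with KO regions. The 106 interior windows of 2 Mb with at least 40.5 RepID regions (the median of the 36 ends) held 29.8 RepID regions per Mb, 66.9 WT regions per Mb and 73.9 KO regions per Mb. Against them the WT density of the ends was not higher but 0.948 times as high (0.917 to 0.981), and the KO density was 0.808 times as high (0.781 to 0.836). These windows had 1.10 KO regions for each WT region, so that the low number of KO regions per WT region at the ends (0.941) was mostly shared with RepID-rich interior windows, with a quotient of 0.853. KO regions covered 28.3% of these windows and 21.2% of the ends. The overlap differed as well: WT regions in these windows were overlapped by a KO region in 63.5% of cases (62.7 to 64.3%). This was the same share as in the whole interior (63.5%), and the ends differed from that of the windows by -9.24 percentage points (-10.9 to -7.59).

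A WT region was called kept where it shared at least 1 bp with a KO region. At the ends 2479 of 4570 WT regions were kept (54.2%, 52.8 to 55.7%), against 63.5% in the interior (63.1 to 63.9%) and 60.6% in the whole list. The difference was -9.26 percentage points (-10.8 to -7.78), and -7.18 (-8.70 to -5.67) without 10q. Over 12 other settings it ran from -16.4, with 50% of the WT region required under KO regions, to -6.90, with windows of 5 Mb. Wide regions are easier to overlap, and since WT regions at the ends were wider, the shares were also compared within classes of width. In each class fewer regions were kept at the ends: 40.4% against 52.4% under 2 kb, 52.4% against 65.9% from 2 to 5 kb, 62.5% against 78.8% from 5 to 10 kb, 70% against 86.4% from 10 to 20 kb, and 77.3% against 93.0% at 20 kb or more. By bases, 27.8% of the WT-covered sequence at the ends lay under a KO region, against 45.9% in the interior. Of all bases, KO regions covered 21.2% at the ends and 19.9% in the interior. How many WT regions would overlap a KO region by position alone was not computed. The kept share was below that of the same chromosome's interior at 28 of 36 ends, at 14 of them with an interval that excluded 0. It was above with such an interval at 11q, 12p and 16q.

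WT regions were called RepID-bound where a RepID region lay at most 2 kb away. At the ends 967 of 4570 were bound (21.2%, 20 to 22.4%) against 18.3% in the interior and 18.7% in the whole list, a difference of 2.90 percentage points (1.70 to 4.14). This difference was 0.635 without 8q, 16q and 17q, -0.466 over the p ends alone and -4.70 after reweighting for score and width. Bound regions at the ends were wide, with a median of 6200 bp against 2800 bp for unbound ones, where the interior had 3000 bp against 2200 bp. A wide WT region is also more likely to have a RepID region within 2 kb by position alone, so part of this difference comes from the definition. Of the WT regions of 20 kb or wider at the ends, 74.9% were bound (69.1 to 80.1%), against 59.6% in the interior (56.5 to 62.7%). From 10 to 20 kb the shares were 40.7% and 37.9%. In the narrower classes the order was the other way: 8.75% (7.24 to 10.5%) against 12.0% (11.6 to 12.4%) under 2 kb, 17.1% against 18.7% from 2 to 5 kb and 21% against 24.6% from 5 to 10 kb.

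The lower kept share at the ends was clearest among WT regions without RepID nearby. Of the 3603 unbound WT regions at the ends 1901 were kept (52.8%), against 64.9% in the interior and 61.7% in the whole list, a difference of -12.1 percentage points (-13.8 to -10.4). Of the 967 bound ones 578 were kept (59.8%), against 57.4% in the interior and 56% in the whole list, a difference of 2.38 (-0.862 to 5.55) whose interval includes 0. This difference among bound regions was -7.99 over the p ends and 7.90 over the q ends, 3.54 without 10q, -4.16 without 8q, 16q and 17q and -2.90 without all 4, -5.28 against the interior windows rich in RepID and -9.31 after reweighting for score and width. Bound regions were kept 7.01 percentage points (3.49 to 10.5) more often than unbound ones at the ends, where the interior gave -7.49 (-8.46 to -6.52). That order at the ends depended on score and width, on 3 ends and on the definition of kept. After reweighting for these the difference was 2.27. Without 8q, 16q and 17q the difference was 1.90 (-1.97 to 5.75), without 10q as well it was 0.769, over the p ends it was -5.30 and over the q ends 14, and where a WT region counted as kept only with 50% of it under KO regions it was -12.2. Of 13 other settings, 11 gave a value above 0. By bases, bound WT regions at the ends were covered less by KO regions than unbound ones, 23.4% against 31.2%. The share for bound regions was close to the 21.2% of all bases at the ends that KO regions covered. Over the p ends it was 12.9%, where KO regions covered 19.1% of all bases. Over the q ends it was 29.6%, where they covered 22.8%. In the interior bound and unbound regions were covered to 36.4% and 49.7%, and all bases to 19.9%.

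**Figure D3:**
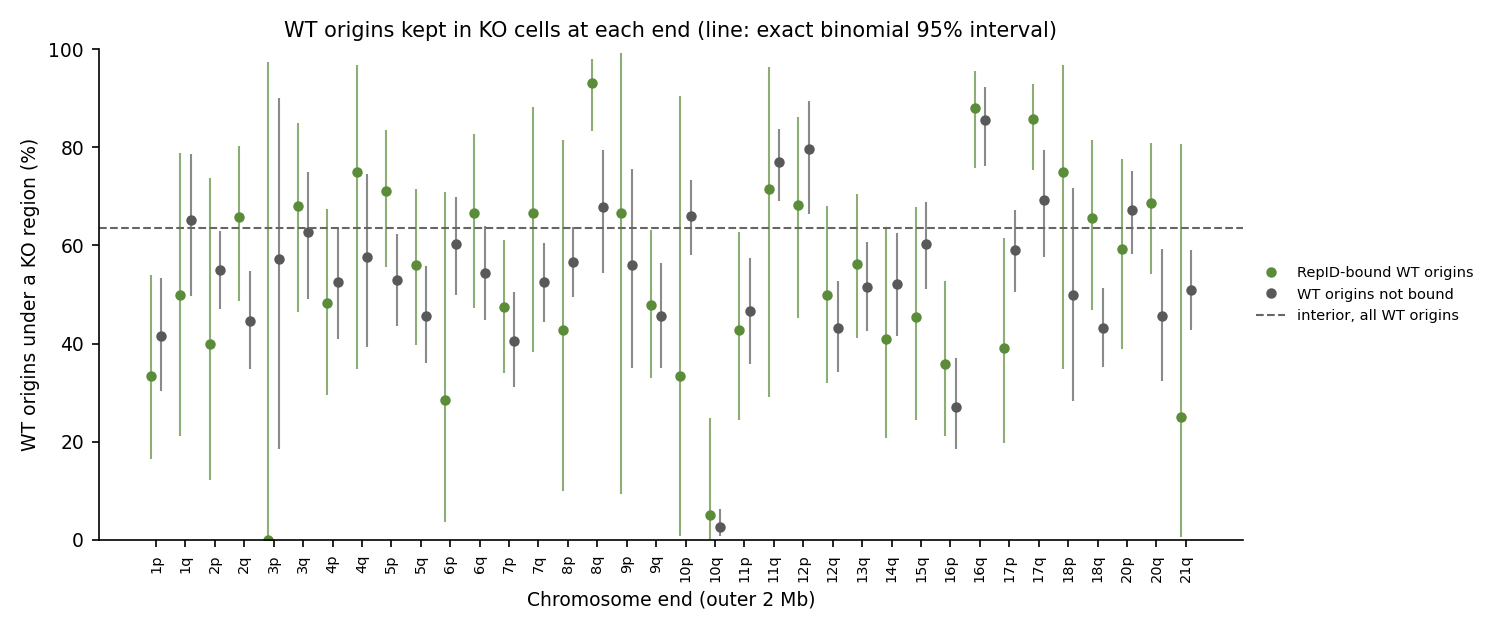
WT origins kept in KO cells at each end. Points are the share of WT regions overlapped by a KO region (percent), separately for RepID-bound and unbound WT regions, lines are exact binomial 95% intervals and the dashed line is the kept share of the interior, 63.5%. At 10q both shares are near 0 (5.0% and 2.53%), at 16q both are high (88% and 85.5%), and at most other ends the intervals of both classes overlap.

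Seen from the KO list, 2819 of 4301 KO regions at the ends overlapped a WT region (65.5%, 64.1 to 67.0%), against 28.9% in the interior and 31% in the whole list. WT regions covered 39.1% of all bases at the ends and 9.17% in the interior, so overlap by position alone is likelier at the ends. The difference is thus no measure of closer agreement between WT and KO cells there. The 1482 KO regions at the ends without WT overlap were narrower (median 2600 bp) and lower in score (117) than those with overlap (3400 bp and 144). RepID regions at the ends were less often close to a KO region than in the interior, 857 of 1989 (43.1%, 40.9 to 45.3%) against 54.9%, where the whole list had 51.8%. The difference was -11.8 percentage points (-14.0 to -9.48). Without 8q, 16q and 17q, where the share was 73.1%, it was -21.3 (-23.7 to -18.8).

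Over all ends, long arms had higher densities than short arms in the 3 lists. WT density was 67.1 per Mb at q ends and 59.0 at p ends, a ratio of 1.14 (1.07 to 1.21). KO density was 62.4 against 56.4 per Mb, a ratio of 1.11 (1.04 to 1.17). The gap was widest for RepID, with 33.4 against 20.4 per Mb, a ratio of 1.64 (1.49 to 1.80). The KO and RepID ratios moved with the ends at the extremes of the KO counts, all of them q ends: without 8q, 10q, 16q and 17q the KO ratio was 1.05 (0.981 to 1.12) and the RepID ratio 1.26 (1.14 to 1.4), while the WT ratio was 1.12 (1.05 to 1.19). Since those ends were left out for their values, these ratios are descriptions. The KO ratio was 1.16 without 10q alone and 0.989 without the other 3 alone.

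The ends differed widely among themselves. WT counts per 2-Mb end ran from 8 at 3p to 201 at 8p with a median of 141.5, KO counts from 7 at 10q to 218 at 16q with a median of 118, and RepID counts from 1 at 3p to 206 at 17q with a median of 40.5. Across the 36 ends the WT and KO counts were weakly related (Pearson's r 0.14, Spearman's rho 0.28), and without 8q, 10q, 16q and 17q the values were 0.30 and 0.46 over 32 ends. The share of bases covered by WT regions went up with the RepID count (r 0.78, rho 0.77), more so than the WT count did (r 0.20, rho 0.11). These are descriptions over ends that share 1 library for each list.

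**Figure D4:**
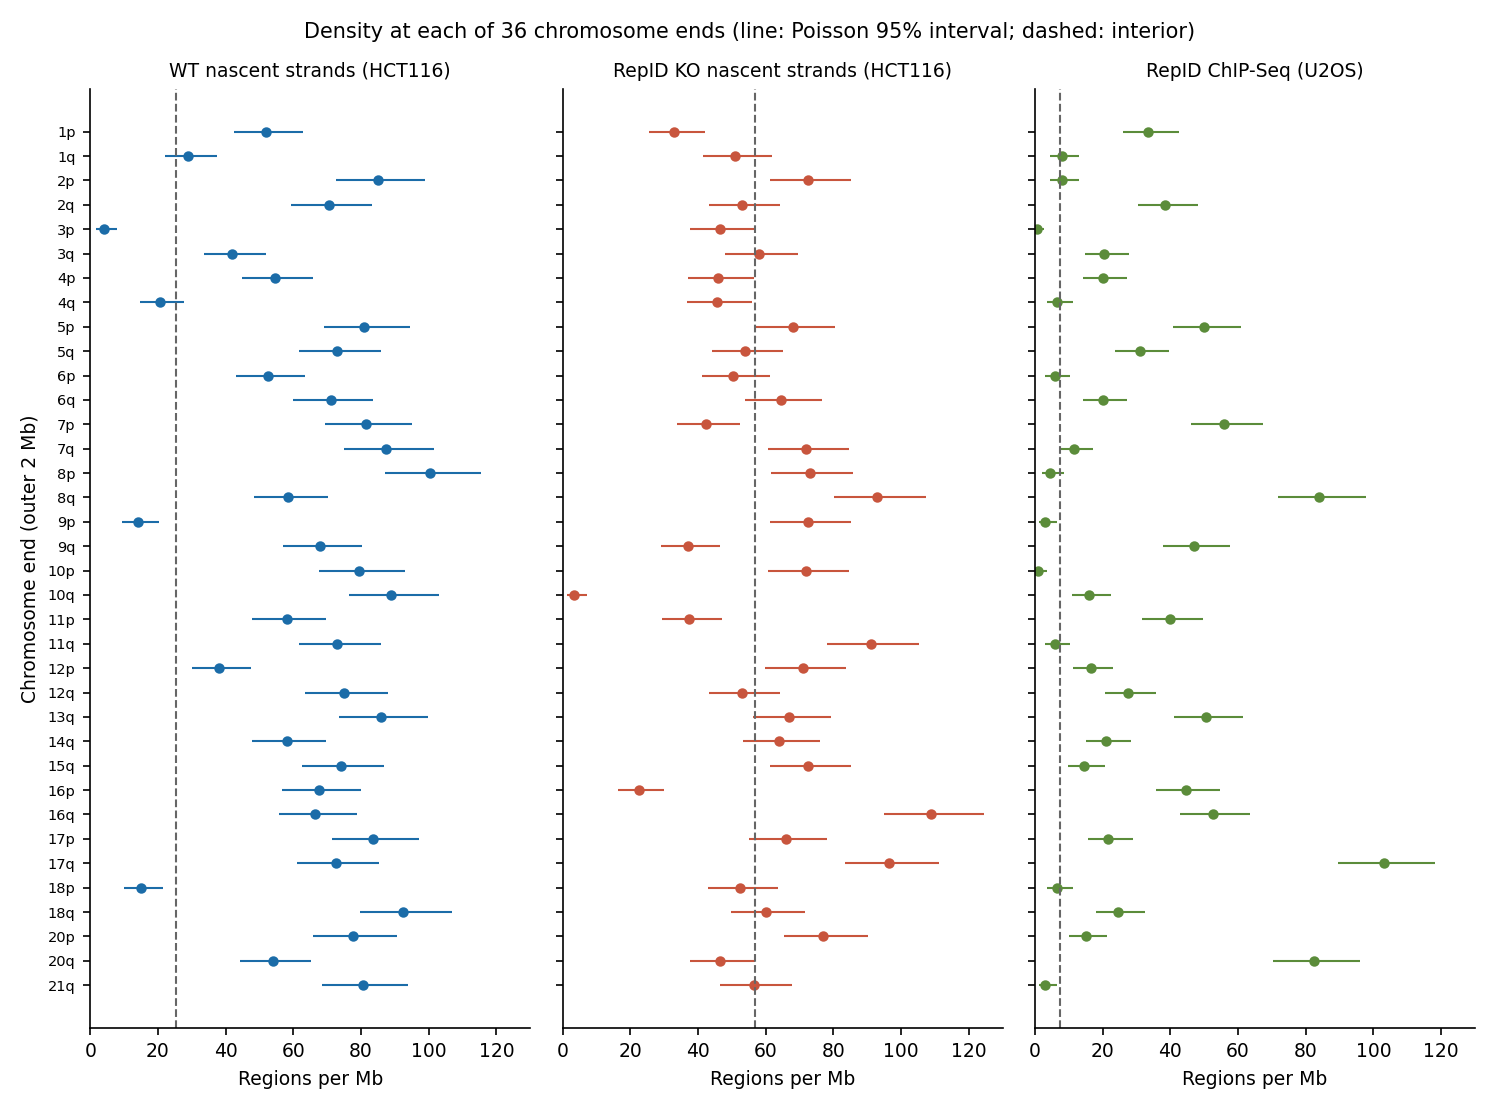
Density at each of 36 chromosome ends. Points are regions per Mb in the outer 2 Mb, lines are Poisson 95% intervals, and dashed lines are the interior densities of 25.3 (WT), 57.0 (KO) and 7.44 (RepID) per Mb. WT points lie far to the right of the dashed line at all but a few ends (3p, 4q, 9p and 18p are to its left and 1q is close to it), KO points scatter on both sides of it with 10q near 0, and RepID points range from 0.5 at 3p to 103 at 17q.

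The highest WT densities were at 8p with 201 regions, 18q with 185 and 10q with 178. At 8p, where RefSeq lists DLGAP2, which encodes a synaptic scaffold protein, and CLN8, an endoplasmic reticulum protein, only 9 RepID regions were found, and 113 of the 201 WT regions were kept (56.2%). At 18q, the end with NFATC1, a transcription factor of the calcineurin pathway, there were 49 RepID regions and 120 KO regions, and 47.0% of WT regions were kept. These gene names come from the RefSeq annotation of GRCh38.p14, another build than that of the lists, and say only which genes are known on that end. Dense WT initiation was found with few RepID regions (8p) and with more of them (18q).

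The 10q end was nearly empty in KO cells. It held 178 WT regions (89.0 per Mb), 32 RepID regions and 7 KO regions (3.50 per Mb), and 5 of the 178 WT regions were kept (2.81%, 0.918 to 6.43%). Its kept share differed from that of the interior of chromosome 10 (71.0%) by -68.2 percentage points (-70.2 to -64.3). The gap did not stop at 2 Mb. Counted by their centres, KO regions numbered 7 in the outer 2 Mb, 1 from 2 to 4 Mb and 171 from 4 to 6 Mb, while WT regions numbered 177, 139 and 184. From 4 to 6 Mb 91.8% of WT regions were kept, so that KO initiation changed from dense to nearly absent at 1 position. The last KO region on the inner side ended at 131367200, and from there to 135424400, over 4.06 Mb, there were 315 WT regions, 39 RepID regions and 3 KO regions, with 1 WT region kept. The longest stretch without any KO region, from 132294801 to 134434600, spanned 2140 kb and held 171 WT regions. At the other 35 ends the longest KO-free stretch within 10 Mb had a median of 127 kb and reached 952 kb at 16p, in a stretch that held 0 WT regions. RefSeq lists on this end CYP2E1, a cytochrome P450 that oxidises ethanol, ECHS1, an enzyme of mitochondrial fatty acid oxidation, and INPP5A, an inositol phosphate phosphatase. The lists hold no measure of DNA copy number, and the control of both lists, genomic DNA of HCT116 cells, was not analysed here.

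Of the 7 KO regions at 10q, 5 lay within the outermost 0.1 Mb. They included a region of 27.0 kb from 135477201 to 135504200 (score 6106), which was the third highest-scoring KO region of all ends, and regions from 135454801 to 135466000 (score 896), 135467201 to 135474400 (718), 135515801 to 135519400 (195) and 135520201 to 135523000 (165). The other 2 were narrow, from 134434601 to 134436400 (score 111) and from 134924601 to 134926800 (167). The tips of 10q and 4q carry near-identical repeats that hold copies of the DUX4 gene, and reads of such copies cannot be assigned to 1 of them with certainty, so the KO regions at the tip of 10q are uncertain. At the 4q end the outermost WT region was at 190986001 to 191014400, with a score of 16116, the highest outermost score of the 36 ends.

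**Figure D5:**
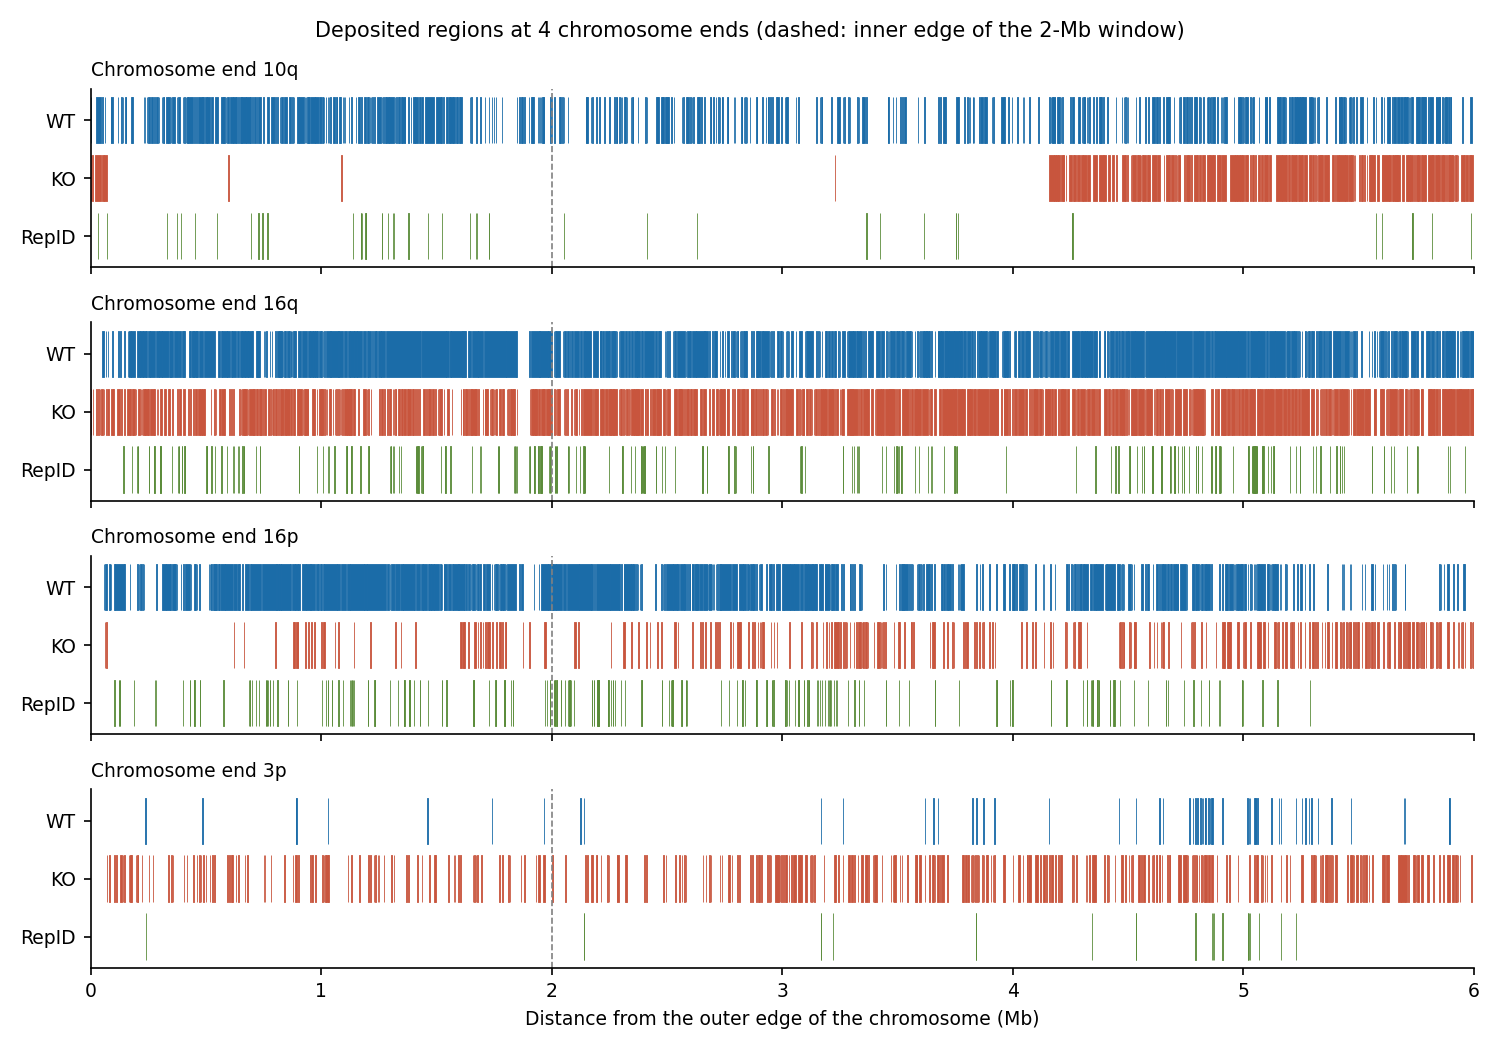
Deposited regions at 4 chromosome ends, 10q, 16q, 16p and 3p. Each bar is a region of the WT, KO or RepID list, drawn to scale by its distance from the outer edge of the chromosome (Mb), with the 2-Mb limit dashed. KO regions are nearly absent at 10q between 0.1 and 4.16 Mb while WT regions are dense, are dense throughout at 16q, are sparse in the outer 2 Mb at 16p, and far outnumber the 8 WT regions at 3p.

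The lowest KO counts after 10q were at 16p with 45 regions and at 1p with 66. The 16p end carries the alpha-globin genes HBA1 and HBA2 and AXIN1, a scaffold of the WNT pathway. WT regions covered 66.8% of it and KO regions 7.33%, it held 89 RepID regions, and 40 of 135 WT regions were kept (29.6%, 22.1 to 38.1%). Going inward, KO regions numbered 95 from 2 to 4 Mb, 137 from 4 to 6 Mb and 79 from 6 to 8 Mb, where WT regions numbered 9, and the kept share was 38.3%, 51.8% and 44.4%. At 1p 41 of 104 WT regions were kept (39.4%, 30 to 49.5%). After 10q and 16p, the lowest number of KO regions per WT region was at 7p (0.521). That end held 163 WT, 85 KO and 112 RepID regions, and 70 of the WT regions were kept (42.9%, 35.2 to 50.9%).

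The ends of 16q, 17q and 8q held many KO regions. KO regions numbered 218, 193 and 186, the highest of the 36 ends, and exceeded the WT counts of 133, 145 and 117. All had many RepID regions, 105 at 16q, 206 at 17q and 168 at 8q, and WT regions covered 74.2%, 73.2% and 64.2% of them. The kept share was 86.5% at 16q (79.5 to 91.8%), 77.2% at 17q (69.6 to 83.8%) and 80.3% at 8q (72.0 to 87.1%). Against the interior of the same chromosome this was a difference of 23.9 percentage points at 16q (16.9 to 29.0), whereas at 17q and 8q the differences of 4.68 (-2.92 to 10.9) and 3.50 (-4.74 to 9.85) had intervals that include 0. A kept share of at least 76% was found in 98 of the 500 interior windows with at least 50 WT regions. Among the bound WT regions it was 44 of 50 at 16q, 60 of 70 at 17q and 54 of 58 at 8q. The high KO density went on inward: between 2 and 4 Mb it was 105 per Mb at 16q, 102 at 17q and 108 at 8q, and 89.2%, 81.2% and 87.7% of WT regions were kept there. As at 10q, the lists hold no measure of DNA copy number for these ends, and a difference in it was not tested. Genes on these ends include CDT1, the licensing factor that loads MCM helicases, and FANCA, a subunit of the Fanconi anaemia core complex, at 16q, FASN, the fatty acid synthase, and ACTG1, a cytoplasmic actin, at 17q, and RECQL4, a helicase that takes part in replication initiation, and HSF1, the heat shock transcription factor, at 8q.

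High RepID density and a high kept share did not always go together. The 20q end, with RTEL1, a helicase needed for telomere maintenance, held 165 RepID regions, close to 8q. Its WT regions had the highest median width of all ends (7200 bp) and covered 71.5% of the sequence, but KO regions numbered 93 and covered 14.7%, and 61 of 108 WT regions were kept (56.5%, 46.6 to 66.0%). Across the 36 ends the RepID count was hardly related to the kept share (r 0.16, rho -0.14), and without 8q, 10q, 16q and 17q, ends left out after their values were seen, the relation was negative (r -0.43, rho -0.50, 32 ends).

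A few ends had almost no WT crowding. The 3p end, which carries the neural adhesion genes CHL1 and CNTN6, had 8 WT regions (4.0 per Mb), 1 RepID region and 93 KO regions, 11.6 KO regions for each WT region. All 8 WT regions were 1000 to 2200 bp wide. The highest-scoring of them, from 238001 to 240200 (score 471), overlapped the only RepID region of that end, from 238882 to 240220 (score 930), and no KO region overlapped it. Of the other 7, 4 were kept, and their scores ran from 49 to 84. The 9p end, with DOCK8, a guanine nucleotide exchange factor of immune cells, and the DMRT1 gene of gonad development, had 28 WT, 145 KO and 6 RepID regions, or 5.18 KO regions for each WT region. At 18p, with TYMS, the thymidylate synthase, there were 30 WT, 105 KO and 13 RepID regions, or 3.50 KO regions for each WT region. These 3 ends had the highest KO counts per WT region, and their KO densities of 46.5, 72.5 and 52.5 per Mb were within the range of the ends rich in WT regions. The 1q end, which carries many olfactory receptor genes, had 58 WT regions, 0.947 times the density of its interior (interval 0.719 to 1.23), and 62.1% of them were kept.

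RepID was nearly absent from several ends that were rich in WT regions. The 10p end, with ADARB2, a relative of the RNA-editing deaminases, had 2 RepID regions and 159 WT regions, of which 104 were kept (65.4%, 57.5 to 72.7%). Its RepID regions, from 417317 to 417654 and from 1506292 to 1506726, had low scores of 102 and 148. The 21q end, with the collagen VI genes COL6A1 and COL6A2 and MCM3AP, had 6 RepID regions, as few as 9p, and 161 WT regions, which covered 50.4% of the sequence. Its outermost RepID region lay 717783 bp from the edge, the farthest of all ends.

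The widest initiation zones were at 16q. The top-scoring WT region of all ends, from 88861601 to 89011400 on chromosome 16 (149.8 kb, score 55239), had 13 RepID regions within 2 kb, and 21 KO regions covered 54.1% of it. Next came 88489601 to 88583200 (93.6 kb, score 44372), of which 13 KO regions covered 51.5%, and 88749401 to 88852800 (103.4 kb, score 38564), of which 10 KO regions covered 41.0%. Wide WT zones there were overlapped by many narrow KO regions with gaps between them. At 16p the zone from 1198201 to 1283200 (85.0 kb, score 36841), with 6 RepID regions, was overlapped by 1 KO region that covered 4.0% of it. It counted as kept by the criterion of 1 bp. At 8q the zone from 144984401 to 145034200 (49.8 kb, score 31588) was covered to 39.8% by 6 KO regions, and at 11p a zone from 1962601 to 2062200 (99.6 kb) was covered to 15.1% by 5.

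RepID-bound zones with no KO region at all were also wide. The 3 with the highest scores lay on chromosome 14 from 105926401 to 105971800 (45.4 kb, score 17813), on chromosome 1 from 948601 to 992600 (44.0 kb, score 17336) and on chromosome 16 from 1807001 to 1845600 (38.6 kb, score 16339). They had 7, 7 and 3 RepID regions within 2 kb, and the nearest KO region was 27200, 24000 and 3800 bp away. These are extremes of the list and stand for no group.

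Of the 5 top-scoring RepID regions of the ends, 4 overlapped a WT region. At 16q the region from 88870385 to 88874084 (3.70 kb, score 3100) was inside the widest WT zone and overlapped a KO region. At 8q the region from 145007728 to 145019530, the widest RepID region of all ends at 11.8 kb, had the same score and was 1470 bp from the nearest KO region, and that from 145021913 to 145027203 (score 2813) overlapped one. A region at 7q from 157253945 to 157254384 (score 2823) lay 216 bp outside the nearest WT region, and one at 2q from 242742213 to 242744782 (score 2424) was 12012 bp from the nearest KO region.

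The highest-scoring KO regions of the ends were at other places. The highest of all was at 18p, from 105201 to 112600 (7.4 kb, score 30591), where the next had a score of 8290. Both 4q regions in this group, from 190469801 to 190550600 (80.8 kb, score 8290) and from 190625801 to 190663000 (37.2 kb, score 3666), were the widest KO regions of the ends, and both overlapped WT and RepID regions. The fifth, at the tip of 5p from 10001 to 11800 (score 3480), overlapped neither. The third widest was at 6p, from 311001 to 345200 (34.2 kb, score 2436).

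Close to the tips, initiation regions were common and RepID regions were not. Within 20 kb of the outer edge a KO region was found at 28 of 36 ends, a WT region at 20 and a RepID region at 8 (1p, 1q, 8q, 13q, 15q, 18p, 18q and 20q). The median distance of the outermost region was 2600 bp for KO, 14200 bp for WT and 53167 bp for RepID. These distances depend on the length of each list, since a longer list reaches closer to an edge. At a q end the edge is itself the end of a listed region, mostly a KO region, so the KO distance there is largely set by this rule. At a p end distances were counted from the first position of the chromosome. RepID density was 20.1 per Mb in the outer 0.5 Mb and 29.5 per Mb between 1.5 and 2 Mb. At the named ends the outermost RepID region was, for example, at 78003809 to 78005367 on 18q with a score of 1594, at 356861 to 357260 on 8p with a score of 117 and at 103806 to 104136 on 16p with a score of 115.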

How the data were processed

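Nascent strands of WT and RepID KO HCT116 cells and a RepID ChIP of U2OS cells were sequenced, with 1 library each. The authors deposited lists of enriched regions (hg19, from the submitters' processing notes, which also name MACS and SICER), each with a score. The RepID score is that of MACS against input of the same cells. The nascent-strand lists were called against 1 genomic DNA sample, and what the deposited score measures is not given in the sources used here, so scores were compared only within a list.

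Densities, overlaps and gaps were computed from the lists with SciPy 1.17.1, pandas 2.3.3 and numpy 2.4.6 under Python 3.11.15, tested on simulated data and against bedtools 2.31.1, and plotted with matplotlib 3.10.9. Shares have Clopper-Pearson intervals, differences of shares Newcombe intervals and density ratios exact conditional intervals, at 95%. No test between conditions was made. Reweighting matched score and width of the groups compared.

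Members, lists and comparisons were chosen with earlier results of these data known. Named ends were the 3 highest and 3 lowest by WT, KO and RepID density and by KO regions per WT region, and ends against the pooled direction where these were 5 or fewer. Named regions were the 5 highest-scoring of each list, the 3 widest, the 3 highest-scoring bound WT regions with and without KO overlap, and outermost regions of named ends. The 11q, 12p and 4q ends and the 20q comparison were named after their values were seen. Alternatives changed the window, the arm, the overlap and binding rules, the list length and the interior compared. Leaving out 10q, or 8q, 16q and 17q, or all 4, was chosen after seeing the data. No sequence is printed, since no genome of this build was used.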

Additional observations from a re-analysis of the deposited data

How the results depend on the processing

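No paired analysis was possible because each condition had 1 library and no test between conditions was made. Of 140 values under other settings, 58 stayed within the interval of the reported value, 71 moved outside it and 11 turned direction. The cause was not tested. In order, ratios for density are WT, KO, RepID and KO per WT region, ends over interior, and differences are in percentage points, ends minus interior unless named.

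With a window of 1 Mb the RepID ratio was 3.23, the kept difference -7.25, that of unbound regions -9.68 and the WT median width ratio 1.33. With 5 Mb the KO ratio was 1.13, RepID 2.98, KO per WT region 0.452, the bound difference -0.016, kept -6.90, unbound kept -9.00, bound minus unbound 3.10, WT width 1.36, WT score 1.57 and KO score 1.05. Over p ends the ratios were 2.33, 0.990 and 2.74, the bound difference -0.466, kept of bound -7.99, kept of unbound -10.2, bound minus unbound -5.30, WT width 1.36, WT score 1.66 and KO score 0.992. Over q ends they were 2.65, 1.09 and 4.49, then 5.26, 7.90 for bound, 14 for bound minus unbound, KO width 1.07, WT score 2.05 and KO score 1.06. Without empty stretches they were 2.33, 0.974 and 3.45. With regions under 1 kb apart merged WT was 2.41, RepID 3.24 and KO per WT region 0.437. By bases they were 4.26, RepID 3.98 and 0.249. With scores at or above the median they were 3.47, 1.10, 3.44 and 0.319. Against interior windows rich in RepID they were WT 0.948, KO 0.808 and KO per WT region 0.853, with kept of bound -5.28 and of unbound -10.2. With KO lists cut to WT length KO was 1.10 and KO per WT region 0.439.

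With 50% of the WT region required the kept difference was -16.4, of bound -8.53, of unbound -17.7 and bound minus unbound -12.2. With binding at 1 bp of overlap the bound difference was 1.69, and at 5 kb 4.66, with kept of bound -0.986. Reweighted for score and width the bound difference was -4.70, kept -12.9, of bound -9.31, of unbound -14.0 and bound minus unbound 2.27. Without 10q kept was -7.18 and of unbound -9.81. Without 8q, 16q and 17q KO was 0.985, RepID 3.07, KO per WT region 0.393, bound 0.635, kept -11.8, kept of bound -4.16, bound minus unbound 1.90 and KO score 1.0. Without all 4, KO was 1.01, RepID 3.10, bound 0.976, kept of bound -2.90, bound minus unbound 0.769, WT score 1.75 and KO score 1.0.

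Leaving out each of the 20 chromosomes in turn reversed none of these 13 results. The WT ratio ran from 2.44 to 2.62, KO from 1.04 to 1.07, RepID from 3.54 to 3.89 and KO per WT region from 0.405 to 0.429. The bound difference ran from 2.11 to 3.87, kept from -9.79 to -7.01, of bound from 0.968 to 3.83, of unbound from -12.7 to -9.76 and bound minus unbound from 5.49 to 8.27. WT width ran from 1.33 to 1.45, KO width stayed at 1.0, WT score ran from 1.83 to 1.95 and KO score from 1.02 to 1.04. Unknown depth limits all counts.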

Other observations

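The ends of chromosomes 19 and 22, which were outside the selection, were read in the same way. The 19p end held 120 WT, 59 KO and 90 RepID regions, WT regions covered 74.5% of it and KO regions 8.24%, and 40 of its 120 WT regions were kept (33.3%, 25 to 42.5%). These values were close to those of 16p. The 19q end held 127 WT, 147 KO and 23 RepID regions, with 59.8% of WT regions kept (50.8 to 68.4%). The 22q end held 158 WT, 108 KO and 99 RepID regions, with 51.3% kept (43.2 to 59.3%).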
